A study of Mus musculus with 2 samples.

Results

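Uveal melanocytes were picked out of 2 single-cell RNA libraries of mouse ciliary body by the messages they carried. A cell counted as a melanocyte if it held at least 5 unique molecular identifiers (UMIs, each standing for 1 captured RNA molecule) of Mlana, at least 20 of Pmel, Dct and Tyrp1 together, at least 1 of Kit, Sox10, Gjb6 and Gjb2 together, at most 1 of the visual cycle genes Rpe65 and Rgr and at most 1 of the keratins Krt8 and Krt18. The rule found 473 cells among the 9331 cells kept, which had at least 500 detected genes and at most 30% of their UMIs from mitochondrial genes. There were 318 melanocytes among 3865 kept cells in library 1, a share of 8.23% (95% Clopper-Pearson interval 7.38% to 9.14%). In library 2 there were 155 among 5466, a share of 2.84% (2.41% to 3.31%). These intervals cover counting error only. Both libraries belong to the same group, so the shares are given without a test between them. Throughout, paired values are those of library 1 and then library 2.

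The tissue came from wild-type C57BL/6 mice of postnatal day 35 with no treatment, and was labelled ciliary epithelium. It had been dissected in warm medium and freed into single cells with collagenase and DNase. Library 1 pooled 3 sets of eyes, and for library 2 the labels give 3 in one field and 4 in another. Each library is thus a pool. The fit took out the shift between these 2 pools that all cell classes shared. The p-values rest only on the scatter that remained, estimated over all fitted classes together, including fibroblasts, macrophages, endothelium and rods. They cover no spread beyond these 2 pools. Age, strain and dissection were common to both libraries, and no genotype or treatment was compared.

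As background, melanocytes of the uvea (iris, ciliary body and choroid) arise from the neural crest and settle in the connective tissue of these layers. The pigmented epithelia of the ciliary body, iris and retina arise from the neural tube and share with melanocytes the enzymes and organelles that make melanin. Skin melanocytes pass their melanosomes to keratinocytes, whereas uveal melanocytes keep theirs. They lie in a dense vascular stroma and are the cells from which uveal melanoma grows.

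The melanocytes were among the deeper cells of these libraries, with a median of 8380 and 6489 UMIs per cell and 2764 and 2470 detected genes, against 4128 and 2968 UMIs in all kept cells. Mitochondrial genes held a median of 5.36% and 6.67% of their UMIs. The class sums compared below rest on 2889429 and 1236710 melanocyte UMIs. RNA of other cells was present and differed between the libraries. Summed over 10 rod markers, melanocytes held 208 and 3704 CPM (UMIs per 1000000 UMIs of the class sum), against 200.4 and 6792 CPM in pigmented epithelium, 294 and 4311 CPM in retinal pigment epithelium and 69375 and 49507 CPM in rods. Summed over 10 fibroblast markers, melanocytes held 3351 and 1867 CPM, against 2472 and 1595 CPM in pigmented epithelium, 232 and 382 CPM in retinal pigment epithelium and 50252 and 36873 CPM in fibroblasts. For 10 macrophage markers the sums were 470.3 and 469 CPM in melanocytes, against 119 and 404 CPM in pigmented epithelium and 255 and 416 CPM in retinal pigment epithelium. For 10 endothelial markers they were 28.0 and 133 CPM in melanocytes, against 185 and 209 CPM in pigmented epithelium and 29.4 and 59.1 CPM in retinal pigment epithelium. The libraries had 11 barcodes in common, 8 of them among kept cells and 0 among melanocytes.

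The genes of the rule are given as a description, with no test. Mlana, a melanosome protein, stood at 10315 and 8250 CPM in melanocytes, against 2322 and 1479 CPM in pigmented epithelium and 560 and 353 CPM in retinal pigment epithelium. Among the 4 lineage genes, Gjb2 (connexin 26) was seen in 83.6% and 83.2% of melanocytes and Gjb6 (connexin 30) in 78.3% and 74.2%. Sox10, the neural crest transcription factor, was seen in 69.5% and 60.6%, and Kit, the receptor of stem cell factor, in 43.7% and 41.9%. All 4 were seen together in 84 and 38 cells, and 50 and 33 cells qualified through a single gene of the 4. Few cells lay at the Mlana limit, with 2 and 3 cells at exactly 5 UMIs and 2 and 5 barcodes kept out at 4. The lineage limit cut through more cells: 33 and 31 melanocytes had exactly 1 UMI of the 4 genes, and 47 and 40 barcodes failed that term alone. Ednrb, which no limit used, was seen in 84.8% and 80.6% of the melanocytes just inside and in 29.8% and 60.0% of the barcodes just outside. The keratin limit kept out 8 and 35 barcodes that met every other term, and the 35 of library 2 had a median of 19814 UMIs. No doublet caller was run on these cells.

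**Figure D1:**
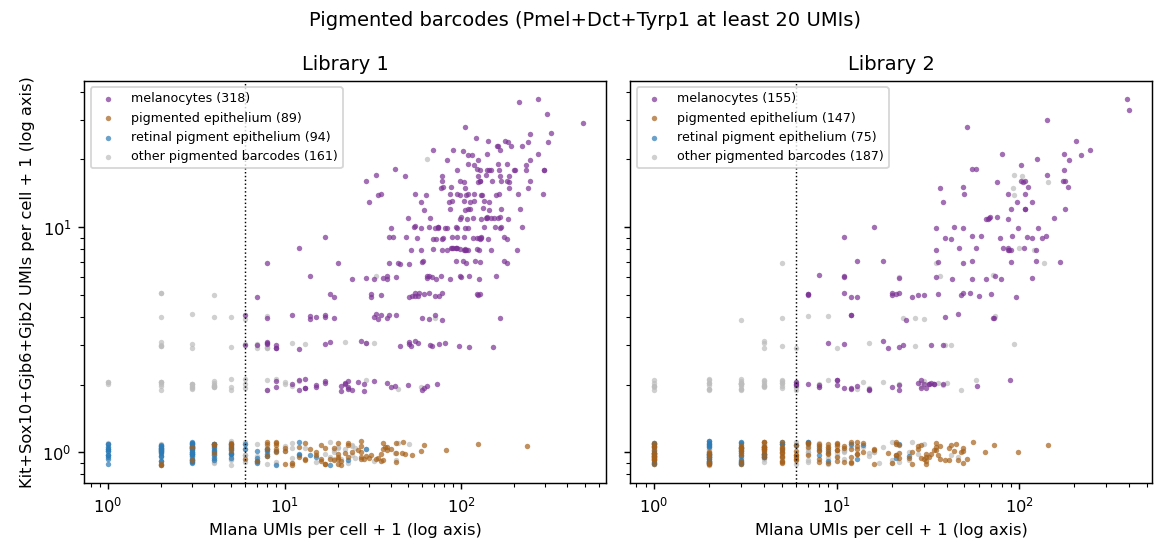
UMIs of Mlana plus 1 (x axis, log scale) against summed UMIs of Kit, Sox10, Gjb6 and Gjb2 plus 1 (y axis, log scale) in pigmented barcodes, with a panel for each library and a dotted line at the Mlana limit. Each point is 1 barcode, coloured as melanocyte (318 and 155), pigmented epithelium (89 and 147), retinal pigment epithelium or other pigmented cell. Melanocytes occupy the upper right, and both epithelia lie near 1 on the y axis (0 UMIs) because their rules require it.

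Most markers of melanocytes that the rule did not use were higher in these cells than in pigmented epithelium or retinal pigment epithelium. Both epithelia were required to lack the 4 lineage genes, and the markers were chosen with earlier results known. The comparison is thus a description and not a test of the label. Ednrb, the endothelin receptor that melanocyte precursors need for their survival and migration, had 1809 and 1547 CPM in melanocytes, against 4.26 and 6.40 CPM in pigmented epithelium and 7.74 and 4.12 CPM in retinal pigment epithelium. No other class reached the melanocyte level, the nearest being endothelium with 236 and 105 CPM. Ednrb (chromosome 14, 103814625 to 103844402, minus strand, GRCm38) was seen in 97.2% and 94.8% of melanocytes, against 3.37% and 5.44% of pigmented epithelial cells, whose median depth was 7449 and 7109 UMIs. With every cell thinned to 2000 UMIs these shares were 92.7% and 86.7% in melanocytes, against 0% and 1.49% in pigmented epithelium, where 0 of 87 cells allows a share of up to 3.45%. Thinning is a random draw, and a second draw of the same 288 and 135 melanocytes, used below for their variation, gave 92.4% and 89.6%. Either draw left out 30 and 20 melanocytes that were shallower. Pax3, a transcription factor of the melanocyte lineage (chromosome 1, 78101267 to 78197134, minus strand), stood at 75.1 and 77.6 CPM in melanocytes and at 0 UMIs in both epithelia of both libraries. It was seen in 44.0% and 36.8% of melanocytes.

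Pigmented epithelium here means cells with at least 2 UMIs of Krt8 and Krt18, the pigment genes and none of the 4 lineage genes (89 and 147 cells). Retinal pigment epithelium means cells with at least 5 UMIs of Rpe65 and Rgr, at least 5 of the pigment genes and none of the 4 lineage genes (117 and 110 cells). The zeros of Kit, Sox10, Gjb6 and Gjb2 in both follow from these rules. UMIs were summed per class and library and compared with edgeR's quasi-likelihood test, with the library as a block, over 12461 genes that no rule used. A call needed at least a 2-fold difference and a p under 0.05 after Benjamini-Hochberg adjustment. All p-values below are adjusted p-values of this edgeR test, and log2 differences carry their standard error. The classes were chosen by expression, so the test describes how their sums differ over the 2 pools. Median mitochondrial shares were 5.36% and 6.67% in melanocytes against 15.4% and 15.6% in pigmented epithelium, and the part of this gap in the results was not tested beyond a lower mitochondrial limit.

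Against pigmented epithelium, 1041 genes were higher in melanocytes (8.35% of those tested) and 1215 were lower (9.75%). Against retinal pigment epithelium, 1291 were higher (10.4%) and 1272 lower (10.2%). Either direction together made 18.1% and 20.6%, and the median log2 difference of all genes was -0.04 and 0.06. These shares and medians are the background for the gene lists below. Of 16 tested melanocyte markers outside the rule, 12 were called higher in melanocytes in each comparison and 0 lower (0 also at an unadjusted p under 0.05 and with DESeq2, which called 10 higher in each), with a median log2 difference of 2.45 against pigmented epithelium and 2.65 against retinal pigment epithelium. Mc1r, the receptor of melanocyte-stimulating hormone, was too low to be tested, with 5.88 and 4.85 CPM in melanocytes and 0 UMIs in both epithelia.

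**Figure D2:**
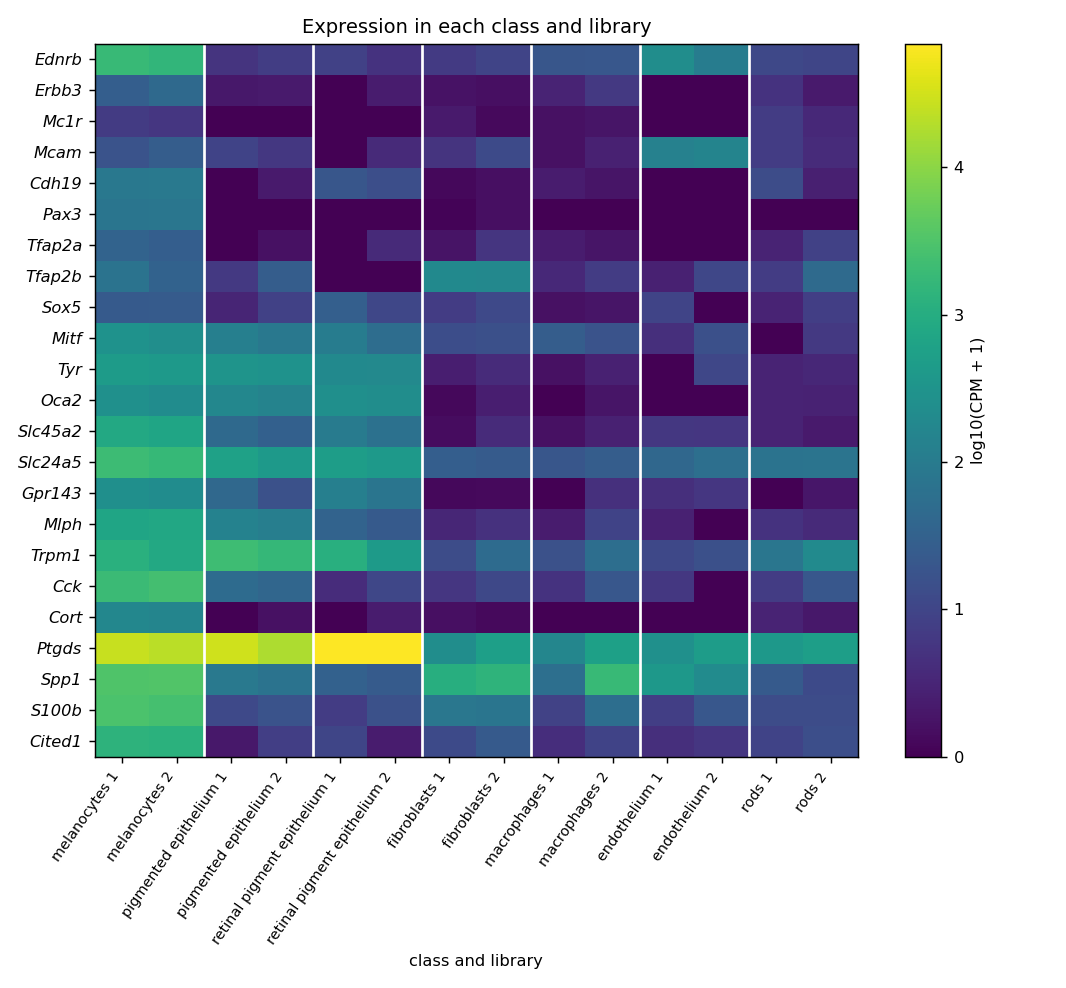
Level of 23 genes (rows) in the 7 cell classes of each library (columns), as log10 of CPM plus 1, given by colour. Melanocytes are the leftmost columns; Ednrb stands at 1809 and 1547 CPM there and at most at 7.74 CPM in both epithelia.

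Ednrb was higher in melanocytes than in pigmented epithelium by 8.32 ± 0.44 on the log2 scale (edgeR adjusted p = 2.39e-07) and than in retinal pigment epithelium by 7.97 ± 0.46 (adjusted p = 1.14e-07). For Pax3, with 0 UMIs in either epithelium, the difference was at least 63.2-fold against pigmented epithelium (adjusted p = 7.42e-05) and at least 34.8-fold against retinal pigment epithelium (adjusted p = 0.000224). Such bounds take 3 counts over both libraries together as the floor. Erbb3, a neuregulin receptor of neural crest derivatives, had 27.0 and 43.7 CPM in melanocytes and 1.07 and 1.28 CPM in pigmented epithelium, so 26.7 times as much (interval from counting error 8.93 to 131) (adjusted p = 0.000216). Cdh19, a cadherin of neural crest and Schwann cell precursors, had 87.2 and 87.3 CPM in melanocytes, against 0 and 1.28 CPM in pigmented epithelium and 18.6 and 13.7 CPM in retinal pigment epithelium. Only 5 and 1 cells met the Schwann cell rule, and melanocytes were not compared with them.

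The 4 markers that did not pass against pigmented epithelium include genes that every pigment cell uses. Tyr, the rate-limiting enzyme of melanin synthesis, had 446 and 397 CPM in melanocytes, against 313 and 291 CPM in pigmented epithelium and 198 and 187 CPM in retinal pigment epithelium. Its log2 difference was 0.60 ± 0.31 against pigmented epithelium (edgeR adjusted p = 0.208). Against retinal pigment epithelium it was 0.95 ± 0.32 (adjusted p = 0.0489), which is under the 2-fold limit. Oca2, a melanosome anion channel, had 265 and 226 CPM in melanocytes, against 173 and 145 CPM in pigmented epithelium and 257 and 229 CPM in retinal pigment epithelium. Trpm1, a cation channel gene used by melanocytes and retinal bipolar cells, had 1173 and 828 CPM in melanocytes, below the 2156 and 1684 CPM of pigmented epithelium in both libraries (log2 difference -0.82 ± 0.59, adjusted p = 0.369). The other was Tfap2b, at 68.9 and 32.3 CPM in melanocytes and 198 and 180 CPM in fibroblasts. It is among the 12 markers called higher against retinal pigment epithelium. In melanocytes without RNA of other cells, meaning at most 1 UMI of Dcn, Lum and Col1a2, at most 1 of C1qa, C1qb and C1qc and 0 of Pecam1 and Cdh5 (276 and 131 cells), Tfap2b fell to 4.52 and 24.1 CPM.

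Melanin synthesis and melanosome genes outside the rule were higher in melanocytes for some transporters and sorting factors, while Tyr and Oca2 passed in neither comparison. Of 18 tested members, 8 rose and 2 fell against pigmented epithelium (median log2 difference 0.91), and 8 rose and 1 fell against retinal pigment epithelium (median 0.83). Slc45a2, a melanosome transporter that keeps the organelle from becoming acidic, had 844 and 696 CPM in melanocytes, against 44.8 and 28.8 CPM in pigmented epithelium and 104 and 63.2 CPM in retinal pigment epithelium. That is a log2 difference of 4.52 ± 0.43 (edgeR adjusted p = 8.83e-06) and 3.04 ± 0.41 (adjusted p = 0.000101). Slc24a5, a cation exchanger of the melanosome pathway, had 2055 and 1746 CPM in melanocytes, against 585 and 393 CPM in pigmented epithelium (2.07 ± 0.27, adjusted p = 0.00011). Rab38, a small GTPase that brings melanin enzymes to the melanosome, had 736 and 456 CPM in melanocytes, against 58.6 and 34.6 CPM in pigmented epithelium and 23.2 and 30.2 CPM in retinal pigment epithelium (3.80 ± 0.31 and 4.22 ± 0.34). Mcoln3, an endosomal and lysosomal cation channel (chromosome 3, 146117450 to 146141806, plus strand), had 183 and 142 CPM in melanocytes, against 0 and 0.640 CPM in pigmented epithelium. It had 0 UMIs in retinal pigment epithelium, a difference of at least 78.2-fold (adjusted p = 1.09e-05). Slc7a11, the cystine transporter linked to the reddish form of melanin, went the other way, with 2.77 and 2.43 CPM in melanocytes and 140 and 84.5 CPM in pigmented epithelium (-5.24 ± 0.77, adjusted p = 0.000263).

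Genes that carry melanosomes along the cytoskeleton rose in part, 7 up and 1 down of 25 tested against pigmented epithelium (median 0.62) and 6 up and 2 down against retinal pigment epithelium (median 0.08). Mlph, the linker between the melanosome and its motor, had 710 and 790 CPM in melanocytes, against 138 and 117 CPM in pigmented epithelium and 34.0 and 22.0 CPM in retinal pigment epithelium. Its motor, the myosin Myo5a, had 500.1 and 496 CPM in melanocytes, against 70.4 and 57.6 CPM in pigmented epithelium and 58.8 and 42.6 CPM in retinal pigment epithelium. Log2 differences were 2.67 ± 0.34 for Mlph and 3.08 ± 0.36 for Myo5a against pigmented epithelium. Myrip, the linker to a different myosin that retinal pigment epithelium uses, had 5.19 and 14.6 CPM in melanocytes, against 241 and 125 CPM in retinal pigment epithelium (-4.59 on the log2 scale).

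Many pigment genes carry the short site CATGTG or CACGTG near their start, the letters that the melanocyte factor Mitf is known to bind. The upstream sequence of 4 pigment genes and of 2 peptide genes that were high in melanocytes is shown because they hold such a site. These are the 160 bases before the transcription start in RefSeq's GRCm38.p6 annotation, 5′ to 3′ on the gene's strand, with the site in capitals (CACATG is CATGTG read from the other strand). They lie at chr7:87493513-87493672 on the minus strand (Tyr), chr7:64153675-64153834 on the plus strand (Trpm1), chr2:125067967-125068126 on the plus strand (Slc24a5), chr1:90914940-90915099 on the plus strand (Mlph), chr4:149126764-149126923 on the minus strand (Cort) and chr9:121495695-121495854 on the minus strand (Cck).
Tyr: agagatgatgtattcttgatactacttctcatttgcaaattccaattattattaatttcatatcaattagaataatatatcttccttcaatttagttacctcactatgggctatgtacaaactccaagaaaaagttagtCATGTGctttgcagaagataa
Trpm1: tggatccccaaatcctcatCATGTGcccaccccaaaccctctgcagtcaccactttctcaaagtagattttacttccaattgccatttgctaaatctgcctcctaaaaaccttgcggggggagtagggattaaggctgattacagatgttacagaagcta
Slc24a5: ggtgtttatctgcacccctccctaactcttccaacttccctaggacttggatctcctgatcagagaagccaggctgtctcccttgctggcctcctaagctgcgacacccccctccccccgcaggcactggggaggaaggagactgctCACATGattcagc
Mlph: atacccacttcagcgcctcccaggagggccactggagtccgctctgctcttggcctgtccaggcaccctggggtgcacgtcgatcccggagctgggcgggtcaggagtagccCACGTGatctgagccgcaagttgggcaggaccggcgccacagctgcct
Cort: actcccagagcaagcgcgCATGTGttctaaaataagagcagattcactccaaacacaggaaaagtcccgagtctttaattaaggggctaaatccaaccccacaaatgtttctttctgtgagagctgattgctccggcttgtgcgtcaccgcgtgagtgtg
Cck: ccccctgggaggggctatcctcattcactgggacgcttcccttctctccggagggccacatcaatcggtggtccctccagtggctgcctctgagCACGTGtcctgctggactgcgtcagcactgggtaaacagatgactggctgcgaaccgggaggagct

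The site begins 21 bases before the start in Tyr, 141 in Trpm1, 13 in Slc24a5, 48 in Mlph, 142 in Cort and 66 in Cck. Trpm1 has a second start in the table, whose window holds 0 such sites. On either strand of the 250 bases before the start, 17.6% of all 32851 promoter windows in the table held CATGTG or CACGTG (12.3% the first and 6.02% the second). Among melanocyte markers outside the rule, 12 of 18 genes were in the table and 7 of their 16 windows held a site, those of Mc1r, Mlph, Oca2, Slc24a5, Trpm1 and Tyr. Tyr, Trpm1 and Oca2 are among the markers that were not called between melanocytes and pigmented epithelium. For the 10 genes with the largest rise against pigmented epithelium under the naming limits it was 4 of 13 windows, and for those against retinal pigment epithelium 1 of 11. The windows of Mcoln3 held none. A match is a description of these letters and not evidence of binding.

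Transcription factors of the neural crest and of the eye neuroepithelium are taken to set the origins of pigment cells apart. Of 21 tested transcription factors of the neural crest and melanocyte lineage, 7 rose and 1 fell in melanocytes against pigmented epithelium (median log2 difference 0.54), and 10 rose and 1 fell against retinal pigment epithelium (median 1.59, or 1.22 with genes at 0 set to their bound). Of 17 tested factors of the eye neuroepithelium, 0 rose and 11 fell against pigmented epithelium (median -3.17, with 0 higher also at an unadjusted p under 0.05 and 11 lower by DESeq2), and 1 rose and 5 fell against retinal pigment epithelium (median -1.88). Mitf, the master factor of pigment cells, had 294 and 240 CPM in melanocytes, against 124 and 87.0 CPM in pigmented epithelium and 108 and 52.2 CPM in retinal pigment epithelium. Its log2 difference was 1.47 ± 0.36 (edgeR adjusted p = 0.00938) and 1.59 ± 0.37 (adjusted p = 0.00687). Neither call held with DESeq2 (adjusted p = 0.0759 and 0.0562). Bhlhe41, a circadian repressor, had 604 and 425 CPM in melanocytes, against 83.1 and 106 CPM in pigmented epithelium and 145 and 89.3 CPM in retinal pigment epithelium. Ets1, a factor of neural crest and endothelium, had 49.5 and 59.8 CPM in melanocytes, against 8.53 and 6.40 CPM in pigmented epithelium. Foxd3, an early neural crest factor, had 20.8 and 29.9 CPM in melanocytes and 0 UMIs in both epithelia, so at least 19.6-fold more than in pigmented epithelium (adjusted p = 0.00105).

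On the neuroepithelial side, Pax6, the eye field factor, had 7.61 and 34.0 CPM in melanocytes, against 708 and 649 CPM in pigmented epithelium (log2 difference -5.35 ± 0.57). Otx2, which drives the fate of retinal pigment epithelium, had 2.42 and 34.0 CPM in melanocytes, against 386 and 379 CPM in pigmented epithelium and 751 and 334 CPM in retinal pigment epithelium. Lhx2 had 1.04 and 2.43 CPM in melanocytes, against 159 and 131 CPM in pigmented epithelium (-6.42 ± 0.62). Otx1 had 0 and 0.809 CPM in melanocytes, against 55.4 and 42.2 CPM in pigmented epithelium, where it was 195 times higher with a counting interval of 34.3 to 7754 (edgeR adjusted p = 3.36e-05). The higher Pax6 and Otx2 values of library 2 stand beside its rod RNA. They also stand beside its melanocytes with exactly 1 keratin UMI, 25 cells against 5 in library 1. Fibroblasts of library 2 held 70.8 CPM of Pax6 against 14.0 CPM in library 1. The part of free RNA or of RNA of other cells in these values was not tested.

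**Figure D3:**
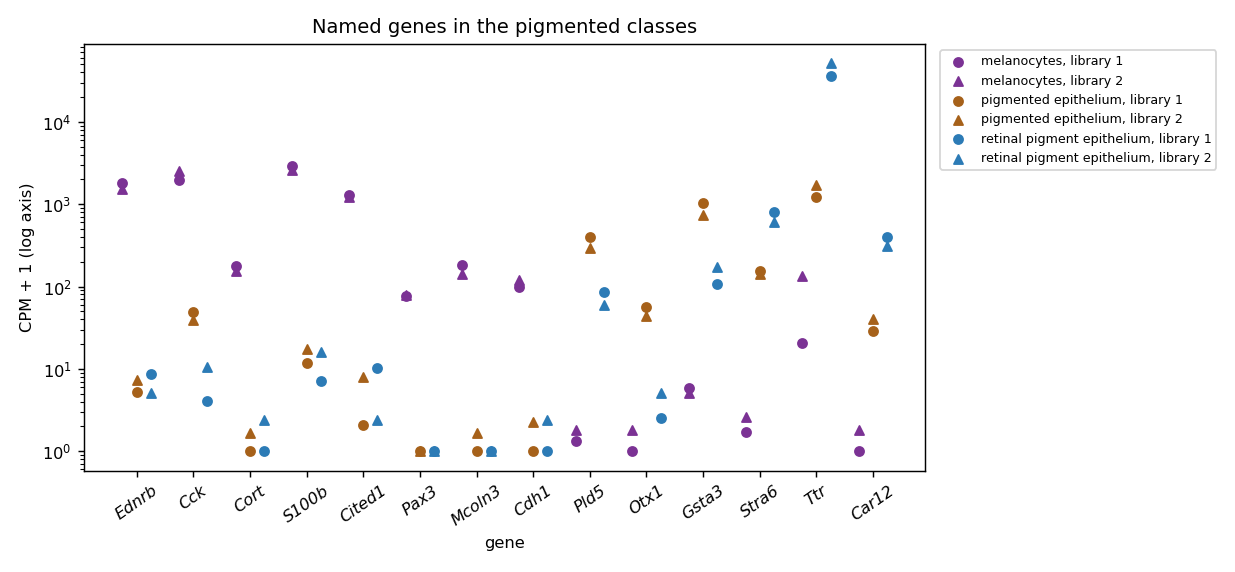
CPM plus 1 (log axis) of 14 genes in melanocytes, pigmented epithelium and retinal pigment epithelium, with a point for each of the 2 libraries and no error bars. Ednrb, Cck, Cort, S100b, Cited1, Pax3, Mcoln3 and Cdh1 lie highest in melanocytes and Pld5, Otx1, Gsta3, Stra6, Ttr and Car12 lowest there, for example Car12 at 0 and 0.809 CPM in melanocytes and 402 and 308 CPM in retinal pigment epithelium.

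A pair of neuropeptide messages was higher in melanocytes than in either epithelium. Cort, which encodes the somatostatin-like peptide cortistatin (chromosome 4, 149125034 to 149126763, minus strand), had 174 and 154 CPM in melanocytes, against 0 and 0.640 CPM in pigmented epithelium and 0 and 1.37 CPM in retinal pigment epithelium. It was seen in 62.9% and 51.0% of melanocytes and 0% and 0.680% of pigmented epithelial cells, where 0 of 89 cells allows up to 3.37%. At 2000 UMIs per cell the melanocyte shares were 28.1% and 26.7% in the first thinning and 26.0% and 18.5% in the second. The ratio to pigmented epithelium was 421 with a counting interval of 75.2 to 16638 (edgeR adjusted p = 1.4e-06), and to retinal pigment epithelium it was 231 with an interval of 41.4 to 9143 (adjusted p = 2.74e-06). Cck, which encodes cholecystokinin (chromosome 9, 121489824 to 121495694, minus strand), had 1956 and 2494 CPM in melanocytes, against 48.0 and 37.8 CPM in pigmented epithelium and 3.095 and 9.61 CPM in retinal pigment epithelium. Its log2 difference was 5.79 ± 0.50 (adjusted p = 4.09e-06) and 8.27 ± 0.61 (adjusted p = 5.01e-07). Cck was seen in 76.4% and 79.3% of melanocytes at 2000 UMIs per cell (74.7% and 73.3% in the second thinning), against 8.05% and 5.22% of pigmented epithelial cells and 0% and 3.41% of retinal pigment epithelial cells, where 0 of 98 cells allows up to 3.06%. Their promoters are those printed above, the Cck one with CACGTG and the Cort one with CATGTG.

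Under the naming limits given below, the genes with the largest rise against pigmented epithelium had 0 or few UMIs there. Insc, an adaptor that orients cell division, had 110 and 121 CPM in melanocytes and 0 UMIs in pigmented epithelium, a difference of at least 94.6-fold (edgeR adjusted p = 1.16e-05). Cited1, a transcription co-regulator found in pigment cells, had 1308 and 1229 CPM in melanocytes, against 1.07 and 7.04 CPM in pigmented epithelium and 9.29 and 1.37 CPM in retinal pigment epithelium (8.31 ± 0.56 and 7.77 ± 0.58). With 0 UMIs in pigmented epithelium, Snhg7os was at least 67.3-fold, Fxyd3 at least 58.2-fold, Sgcd at least 53.5-fold and Rnf128 at least 34.8-fold higher in melanocytes. S100b, a calcium-binding protein of glia and melanocytes that was picked after its values were seen, had 2933 and 2583 CPM in melanocytes, against 10.7 and 16.6 CPM in pigmented epithelium and 6.19 and 15.1 CPM in retinal pigment epithelium (7.85 ± 0.63 and 7.89 ± 0.65). Against retinal pigment epithelium, other genes among the 10 largest rises, beside Mcoln3 and Pax3, also had 0 UMIs there. They include Brca1 (at least 53.6-fold), Glrb (48.3), Cxcl10 (47.7), Cyp4b1 (41.4), Gstp2 (33.5) and Pth1r (28.8), each as a lower bound. Cxcl10 was uneven, at 53.0 and 224 CPM in melanocytes and in 10.1% and 16.8% of the cells, against 59.6 and 401 CPM in fibroblasts.

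Under the same limits, the genes with the largest fall in melanocytes included transporters, receptors and enzymes of the epithelia. Pld5 had 0.346 and 0.809 CPM in melanocytes, against 399 and 294 CPM in pigmented epithelium, where it was 687 times higher with a counting interval of 189.6 to 5684 (edgeR adjusted p = 4.2e-07). Gsta3, a glutathione transferase, had 4.85 and 4.04 CPM in melanocytes, against 1029 and 742 CPM in pigmented epithelium. Folr1, the folate receptor, had 3.46 and 4.04 CPM in melanocytes, against 626 and 450 CPM in pigmented epithelium. Stra6, the receptor that takes up retinol, had 0.692 and 1.62 CPM in melanocytes, against 152 and 143 CPM in pigmented epithelium and 795 and 614 CPM in retinal pigment epithelium. Slc7a10, an amino acid exchanger, had 0 UMIs in melanocytes and 258 and 159 CPM in retinal pigment epithelium, at least 283-fold lower. Car12, a carbonic anhydrase of the cell surface, had 0 and 0.809 CPM in melanocytes, against 402 and 308 CPM in retinal pigment epithelium, where it was 1453 times higher with a counting interval of 259.6 to 57510 (adjusted p = 2.3e-07). Ttr, the carrier of retinol and thyroid hormone, had 19.7 and 133 CPM in melanocytes, against 36453 and 51291 CPM in retinal pigment epithelium.

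Receptors and ligands known to act on melanocytes were split, with 4 of 20 tested higher and 8 lower against pigmented epithelium (median -0.12) and 4 higher and 6 lower against retinal pigment epithelium (median 0.64, or 0.47 with genes at 0 set to their bound). Met, the receptor of hepatocyte growth factor, had 342 and 232 CPM in melanocytes, against 23.5 and 40.3 CPM in pigmented epithelium (log2 difference 3.21 ± 0.37) and 356 and 262 CPM in retinal pigment epithelium (-0.29, not called). Ntrk2, Notch2, Igf1r, Lgr4 and Fgfr1 were called lower in both comparisons. The ligands of Kit and Ednrb were seen mainly in other classes. Kitl had 216 and 203 CPM in fibroblasts and 335 and 153 CPM in endothelium. Edn3 had 32.5 and 21.8 CPM in melanocytes, against 290.5 and 348 CPM in fibroblasts, and 0.452 and 3.14 CPM in melanocytes without RNA of other cells. Kitl was called higher in melanocytes (46.0 and 27.5 CPM) than in pigmented epithelium (16.0 and 12.2 CPM), and in melanocytes without RNA of other cells it had 23.0 and 15.7 CPM.

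Connexins form the gap junctions that join neighbouring cells. Beside Gjb2 and Gjb6, which the rule used, 5 of 14 listed connexins were tested, with 1 rise and 1 fall in each comparison. Gja1 (connexin 43) had 13.2 and 25.9 CPM in melanocytes, against 1115 and 926 CPM in pigmented epithelium and 478 and 342 CPM in retinal pigment epithelium. Its log2 difference was -5.70 ± 0.44 (edgeR adjusted p = 1.62e-06) and -4.67 ± 0.42 (adjusted p = 3.11e-06). Gjc3 had 26.0 and 18.6 CPM in melanocytes and 0 UMIs in both epithelia, at least 19.8-fold and 10.9-fold higher (adjusted p = 0.00258 and 0.00766).

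Of 15 tested adhesion genes of epithelia, 1 rose and 8 fell against pigmented epithelium (median log2 difference -3.41, or -2.72 with genes at 0 set to their bound) and 2 rose and 7 fell against retinal pigment epithelium (median -1.35). Cdh1, the E-cadherin that ties melanocytes to keratinocytes in skin, rose in both, and F11r, a tight junction adhesion molecule, against retinal pigment epithelium. Cdh1 had 96.9 and 119 CPM in melanocytes, against 0 and 1.28 CPM in pigmented epithelium and 0 and 1.37 CPM in retinal pigment epithelium, and was seen in 49.7% and 50.3% of melanocytes (17.0% and 21.5% at 2000 UMIs, first thinning). The ratio to pigmented epithelium was 129 with a counting interval of 35.6 to 1072 (edgeR adjusted p = 4.42e-06). The tight junction gene Cldn1 had 9.69 and 4.04 CPM in melanocytes, against 81.0 and 124 CPM in pigmented epithelium and 371 and 306 CPM in retinal pigment epithelium. P-cadherin, Cdh3, had 3.81 and 4.04 CPM in melanocytes, against 76.8 and 49.9 CPM in pigmented epithelium. Of 17 tested adhesion genes of mesenchymal cells, 5 rose and 2 fell against pigmented epithelium and 8 rose and 4 fell against retinal pigment epithelium. Among them Alcam had 67.5 and 88.1 CPM in melanocytes, against 8.53 and 5.76 CPM in pigmented epithelium, and the integrin chain Itga9 had 129 and 167 CPM in melanocytes, against 23.5 and 18.6 CPM.

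Basement membrane genes changed in both directions, 4 higher and 11 lower of 22 tested against pigmented epithelium (median log2 difference -1.21) and 6 higher and 7 lower against retinal pigment epithelium (median 0.37). Lama4, Nid1, Hspg2 and Agrn were called higher in both comparisons. The Nid1 call against pigmented epithelium was lost without possible doublets (log2 difference 0.40, edgeR adjusted p = 0.63) and with a 15% mitochondrial limit (0.77, adjusted p = 0.192). Possible doublets were melanocytes above the 95th percentile of melanocyte UMIs, or meeting the first limit of another class's rule. They were left out of the melanocytes only, and the other classes were kept whole. Hspg2, the heparan sulfate proteoglycan perlecan, had 55.4 and 50.1 CPM in melanocytes, against 19.2 and 20.5 CPM in pigmented epithelium and 3.095 and 2.75 CPM in retinal pigment epithelium. Nid2, a nidogen, had 4.15 and 0.809 CPM in melanocytes, against 124 and 112 CPM in pigmented epithelium (-5.25). The collagen chains Col4a3, Col4a4 and Col4a5 were also called lower in both comparisons.

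**Figure D4:**
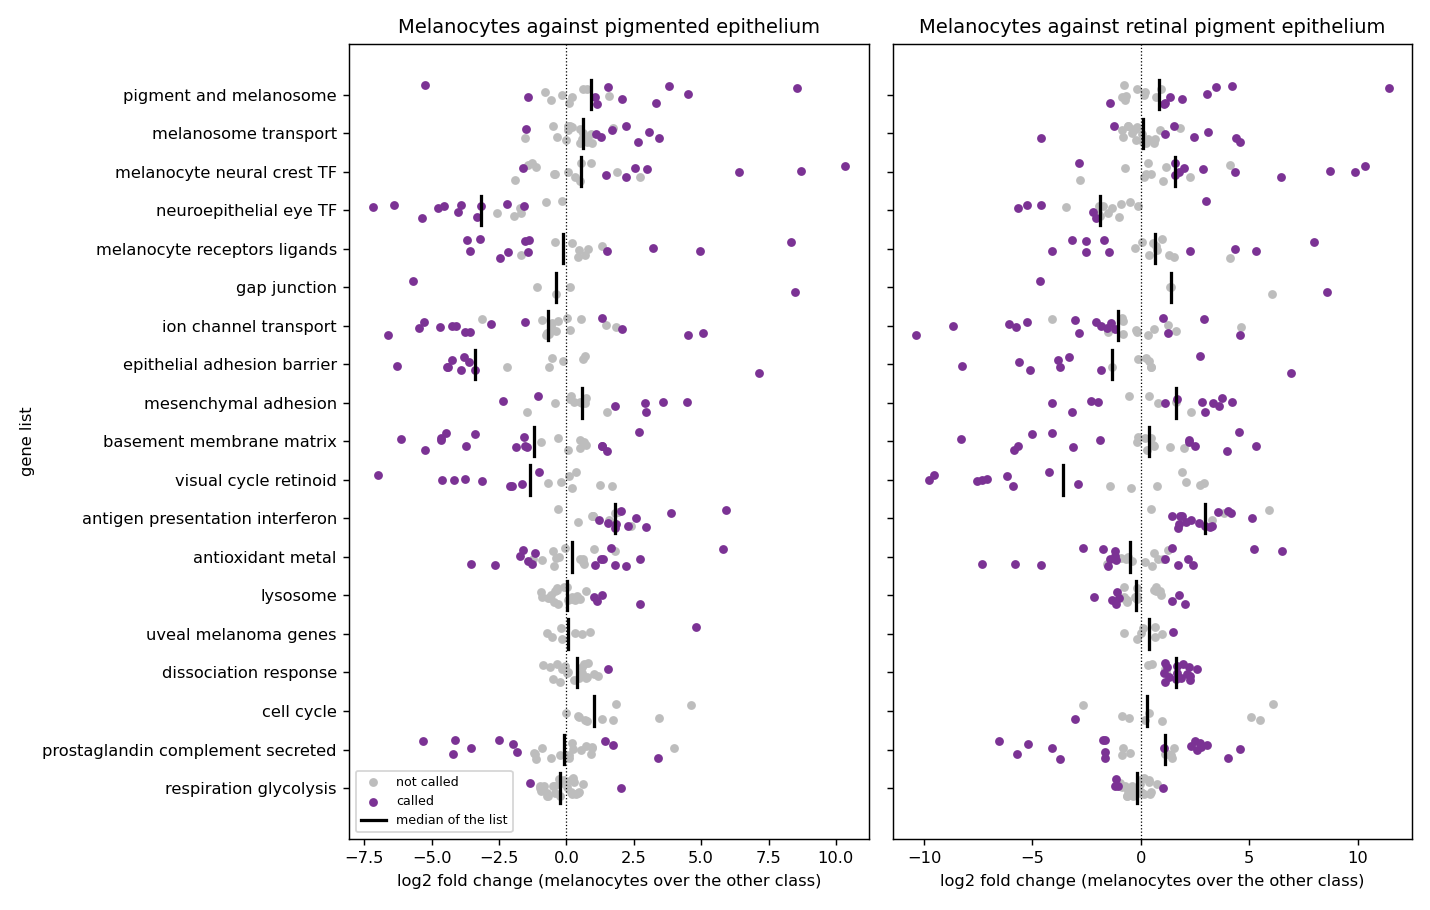
Log2 difference of each tested member of 19 gene lists, melanocytes against pigmented epithelium in one panel and against retinal pigment epithelium in the other. Purple points were called at an edgeR adjusted p under 0.05 and at least 2-fold, grey points were not, and a black bar marks each list's median, which is -3.17 for neuroepithelial factors and 1.81 for antigen presentation and interferon genes against pigmented epithelium.

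Ion transport, the work of the ciliary epithelium when it secretes aqueous humour, was lower for 10 and higher for 4 of 28 tested genes against pigmented epithelium (median -0.68), and lower for 12 and higher for 4 against retinal pigment epithelium (median -1.04). Kcnj13, an inwardly rectifying potassium channel, had 1413 and 1343 CPM in melanocytes, against 41.6 and 49.3 CPM in pigmented epithelium (log2 difference 5.08 ± 0.40, edgeR adjusted p = 1.9e-06) and 439 and 603 CPM in retinal pigment epithelium (1.26 ± 0.33, adjusted p = 0.0142). The second call was lost without the library block. Trpv2, a cation channel, had 39.8 and 39.6 CPM in melanocytes, against 1.07 and 2.56 CPM in pigmented epithelium. The bicarbonate transporter Slc4a4 had 13.8 and 25.9 CPM in melanocytes, against 894 and 925 CPM in pigmented epithelium (-5.48 ± 0.47). The lactate transporter Slc16a8 had 1.38 and 12.9 CPM in melanocytes, against 1868 and 1872 CPM in retinal pigment epithelium (-8.68 ± 0.56). Of 16 tested retinoid and visual cycle genes, 0 were higher and 9 lower in each comparison, with medians of -1.34 and -3.58. At an unadjusted p under 0.05, 0 and 2 were higher, and by DESeq2 0 in both.

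Antigen presentation and interferon genes were higher, 10 of 19 tested against pigmented epithelium (median log2 difference 1.81, or 1.79 with genes at 0 set to their bound) and 15 of 19 against retinal pigment epithelium (median 2.94, or 2.68). None was lower, at an unadjusted p under 0.05 or with DESeq2 either. H2-D1, a class I histocompatibility chain, had 715 and 716 CPM in melanocytes, against 91.7 and 113 CPM in pigmented epithelium (2.94 ± 0.45, edgeR adjusted p = 0.000328). B2m, its light chain, had 1258 and 1543 CPM in melanocytes, against 399 and 434 CPM in pigmented epithelium and 379 and 352 CPM in retinal pigment epithelium (1.85 ± 0.27 and 1.74 ± 0.27). Isg15, an interferon-induced ubiquitin-like protein, had 537 and 416 CPM in melanocytes, against 22.4 and 49.3 CPM in pigmented epithelium (3.87 ± 0.58, adjusted p = 0.00027). Ifit1 had 281 and 233 CPM in melanocytes, against 34.1 and 57.6 CPM in pigmented epithelium and 4.64 and 8.24 CPM in retinal pigment epithelium. In melanocytes without RNA of other cells these levels were 761 and 733 CPM for H2-D1, 589 and 407 CPM for Isg15 and 303 and 221 CPM for Ifit1. Ifi27l2a, picked after its values were seen, differed between the pools, with 582 and 2017 CPM in melanocytes and 35.2 and 61.4 CPM in pigmented epithelium. Cd74, the class II invariant chain, had 307 and 287 CPM but came from 5.97% and 9.68% of melanocytes, against 10649 and 10184 CPM in macrophages. The class II chains H2-Aa and H2-Ab1 were called higher against retinal pigment epithelium, and the summed macrophage markers stood at 470.3 and 469 CPM in melanocytes, against 255 and 416 CPM in retinal pigment epithelium. H2-Ab1 had 59.9 and 76.0 CPM in melanocytes and 25.7 and 93.2 CPM in melanocytes without RNA of other cells. That filter used no class II gene. The H2-Ab1 call was lost with a stricter melanocyte rule (edgeR adjusted p = 0.0514) and without the library block (0.0564).

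Genes that handle oxidants and metals split by member, 8 up and 7 down of 28 against pigmented epithelium (median log2 difference 0.21) and 7 up and 10 down against retinal pigment epithelium (median -0.51). Gstp1, a glutathione transferase, had 7003 and 4308 CPM in melanocytes, against 122 and 94.1 CPM in pigmented epithelium and 136 and 118 CPM in retinal pigment epithelium (5.79 ± 0.35 and 5.23 ± 0.34). Its near-identical neighbour Gstp2 could share reads with it. The ferritin heavy chain Fth1 had 16858 and 16634 CPM in melanocytes, against 2843 and 2639 CPM in pigmented epithelium (2.72 ± 0.24), and the light chain Ftl1 was also called higher in both comparisons. Mt3, a metallothionein, had 9.69 and 23.4 CPM in melanocytes, against 2261 and 1906 CPM in retinal pigment epithelium, and transferrin, Trf, had 185 and 249 CPM in melanocytes, against 9078 and 11820 CPM there.

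Among 26 tested secreted factors, 3 were higher and 7 lower against pigmented epithelium (median -0.07, or -0.28 with genes at 0 set to their bound), and 9 higher and 9 lower against retinal pigment epithelium (median 1.10). The complement gene C4b had 375 and 348 CPM in melanocytes, against 33.0 and 40.3 CPM in pigmented epithelium (log2 difference 3.41 ± 0.31). Clu, a secreted chaperone, had 146 and 95.4 CPM in melanocytes, against 2411 and 2536 CPM in pigmented epithelium. Ptgds, the prostaglandin D synthase, had 26759 and 22100 CPM in melanocytes, against 30628 and 17209 CPM in pigmented epithelium (0.10 ± 0.45, edgeR adjusted p = 0.909) and 68497 and 67385 CPM in retinal pigment epithelium (-1.63 ± 0.46, adjusted p = 0.0194). Spp1, which encodes osteopontin, had 3215 and 3369 CPM in melanocytes, against 87.4 and 69.1 CPM in pigmented epithelium and 31.0 and 23.3 CPM in retinal pigment epithelium (5.50 ± 1.02 and 6.73 ± 1.11), and fibroblasts held 1089 and 1384 CPM of it. Vegfa and Tgfb2 were called lower in both comparisons. Cxcl12, Serpinf1, Col1a1 and Mgp were called higher than in retinal pigment epithelium, but their log2 differences were below 0 when cells with RNA of other cells were left out (-0.56, -1.53, -0.18 and -1.10).

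Of 23 tested lysosome genes, 4 rose and 0 fell against pigmented epithelium (median log2 difference 0.03, with 4 lower at an unadjusted p under 0.05 and 0 by DESeq2), and 3 rose and 5 fell against retinal pigment epithelium (median -0.22), with Ctsz at 778 and 554 CPM in melanocytes and 91.7 and 127 CPM in pigmented epithelium. Among 26 genes of respiration and glycolysis 1 rose and 1 fell, and 1 rose and 3 fell. Of 8 tested genes mutated or used as markers in uveal melanoma, 1 rose in each comparison. Rasgrp3, an activator of Ras signalling, had 232 and 240 CPM in melanocytes, against 9.59 and 8.32 CPM in pigmented epithelium (4.82 ± 0.37, edgeR adjusted p = 1.46e-06) and 193 and 83.8 CPM in retinal pigment epithelium. Gna11 had 114 and 117 CPM in melanocytes, against 29.4 and 42.6 CPM in retinal pigment epithelium (1.48 ± 0.29), while Gnaq, with 53.3 and 54.2 CPM in melanocytes and 40.5 and 52.5 CPM in pigmented epithelium, was not called. Of 10 tested cell cycle genes none rose in either comparison in edgeR, at an unadjusted p under 0.05 or in DESeq2, Cdk1 fell against retinal pigment epithelium, and Mki67 stood at 0 and 3.23 CPM in melanocytes.

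Genes induced while tissue is being dissociated were higher in melanocytes than in retinal pigment epithelium, 15 of 20 tested (median log2 difference 1.62), and 1 of 20 was higher against pigmented epithelium (median 0.38). Fos had 610 and 2034 CPM in melanocytes, against 464 and 1284 CPM in pigmented epithelium and 184 and 360 CPM in retinal pigment epithelium. Hspa1a, a heat shock protein, had 111 and 852 CPM in melanocytes, against 31.0 and 133 CPM in retinal pigment epithelium (2.10 ± 0.45, edgeR adjusted p = 0.0036). Without the library block this call was lost (adjusted p = 0.237). So were those of Hspa1b (0.136), Ier3 (0.175) and Socs3 (0.244), the other members of this list followed through the alternatives. The Socs3 call against pigmented epithelium was lost there too (0.421). For Fos and Hspa1a, library 2 was the higher pool in each class given.

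Markers of other cells moved with some of these groups. Against retinal pigment epithelium 5 of 7 tested fibroblast markers were higher in melanocytes (Col1a1, Col3a1, Gsn, Mgp and Serpinf1), and against pigmented epithelium Col1a1 rose and Fbln1 fell. For macrophages 0 of 7 were called against pigmented epithelium (1 higher at an unadjusted p under 0.05, 0 by DESeq2), and Mrc1 rose and Csf1r fell against retinal pigment epithelium. Rod markers were called in neither comparison (0 of 6) and the 1 mast cell marker tested was not either, with 0 also at an unadjusted p under 0.05 and by DESeq2. Tested endothelial markers gave Cldn5 lower against pigmented epithelium. Of 5 tested Schwann cell markers Pmp22 and Cnp rose against pigmented epithelium, and Pmp22 and Mal against retinal pigment epithelium. All 8 tested markers of pigmented epithelium fell against that class, and all 7 of retinal pigment epithelium fell against theirs. Red cell genes summed to 1314 and 40.4 CPM in melanocytes, against 7047 and 11610 CPM in retinal pigment epithelium, where Hba-a1 and Hba-a2 were called lower in melanocytes. Without the library block the edgeR calls against retinal pigment epithelium were lost for Hba-a1 (adjusted p = 0.0984), Hba-a2 (0.115) and Pmp22 (0.0548). That of Cldn5 against pigmented epithelium was lost without cells holding RNA of other cells (adjusted p = 0.151). Dcn, a fibroblast proteoglycan, had 1264 and 810 CPM in melanocytes and was seen in 19.8% and 18.1% of them.

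Of the genes measured for it, those that varied most among melanocytes were abundant messages, such as Ptgds and Malat1, and sparse ones carried by few cells. The sparse ones included Cd74 (a UMI in 4.17% and 6.67% of cells) and Dcn. Each cell was thinned to 2000 UMIs (288 and 135 cells), and the Fano factor, the variance over the mean, was taken over 1118 genes. These had a thinned mean of at least 0.2 UMIs per cell in both libraries. Mitochondrial and ribosomal protein genes and genes with provisional names (Gm or Rik) were left out, so their variation was not ranked. The median Fano factor was 1.05 and 1.08, where 1 is the value of pure counting. Of 15 genes ranked among the 20 highest in both libraries, Cd74 had 49.0 and 18.5 and Dcn 28.7 and 19.1. Without cells that held RNA of other cells the Fano factor of Dcn was 0.976 and 0.955 and that of Mgp 0.984 and 1.00, but these cells had been left out for Dcn itself. Cd74 still had 34.4 and 17.6 in the cells kept, and the filter used no class II gene. Cck kept its spread there, at 7.08 and 6.54 against 6.87 and 6.54 in all melanocytes. Its thinned counts had a median of 2 and 3 UMIs per cell, a 90th percentile of 9 and 12 and a highest cell of 34 and 35. The tenth of cells with most Cck held 40.2% and 35.8% of its UMIs.

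Ptgds (12.1 and 13.5), Pmel (8.45 and 9.47), Gstp1 (6.56 and 4.69), Dct (5.91 and 6.81), Spp1 (4.39 and 4.83) and Ifi27l2a (4.19 and 6.29) also had high Fano factors in both libraries. The rule set a minimum on Mlana and on the sum that holds Pmel and Dct, so values of these genes describe cells chosen by them. Across cells, Ptgds and Mlana counts had a Spearman correlation of 0.401 and 0.499, and Ptgds and Fth1 one of 0.355 and 0.551. Without cells holding RNA of other cells these were 0.311 and 0.457, and 0.363 and 0.512. For Cck the same measure in all melanocytes was 0.287 and 0.261 with Mlana, 0.007 and 0.067 with Spp1 and 0.004 and -0.056 with Cort. Without those cells it was 0.246 and 0.205 with Mlana, -0.055 and 0.009 with Spp1 and -0.053 and -0.076 with Cort. These are descriptions over 288 and 135 cells that share a library and a fixed depth of counts, and counts of 1 fixed total are not independent of each other.

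**Figure D5:**
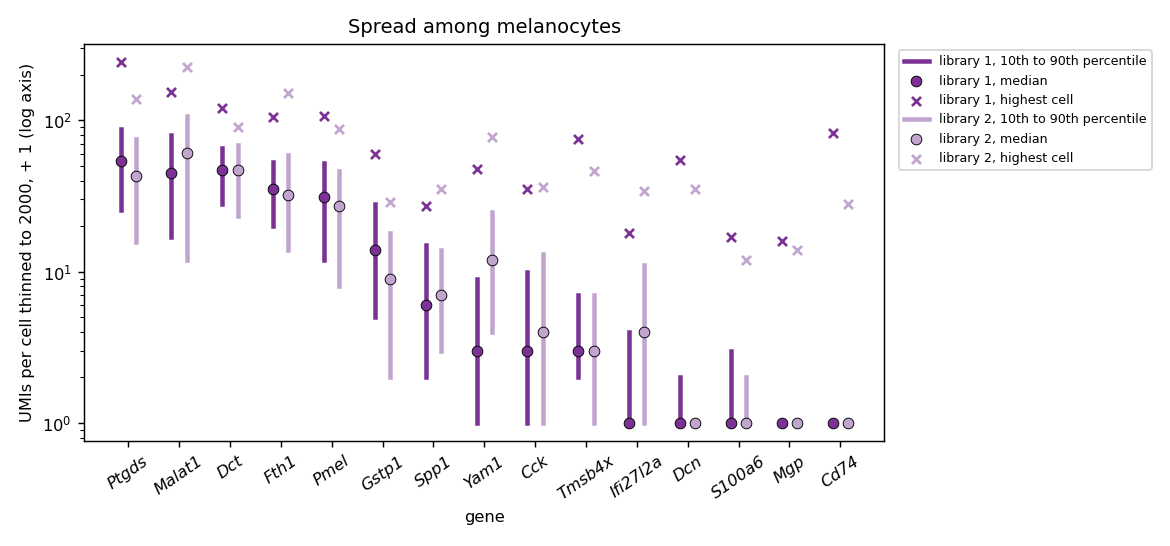
UMIs per cell plus 1 (log axis) of 15 genes in melanocytes thinned to 2000 UMIs, for each library (288 and 135 cells). Bars run from the 10th to the 90th percentile, with a mark at the median and a point at the highest cell; Cck has a median of 2 and 3 and a highest cell of 34 and 35.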

How the data were processed

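The authors deposited raw UMI counts per gene and barcode, made with Cell Ranger 3.1.0 per the file headers. The submitters' processing notes also name CASAVA 1.8, Seurat and the builds mm10 and GRCm38. The annotation release is not given in the sources used here. A second deposited matrix of each library had 0 entries differing from the first. The files held 33456 genes, of which 32655 were found in a GENCODE annotation of GRCm38 used for positions, and 22510387 and 30683405 UMIs in 4764 and 6220 barcodes. The melanocyte rule, the genes and the lists were chosen with earlier results of these data known.

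UMIs were summed over the cells of 7 classes (melanocytes, pigmented epithelium, retinal pigment epithelium, fibroblasts, macrophages, endothelium and rods) in each library, giving 14 sums. Cells passing the rules of more than 1 class numbered 1 and 8. They were left out of every class except melanocytes, so any that met the melanocyte rule stayed there. edgeR 4.0.16 (R 4.3.3, TMM scaling, filterByExpr) was fitted to 12488 genes with class and library as terms and 6 residual degrees of freedom. The library number marks a shared pool of eyes, so it served as the block. Benjamini-Hochberg adjustment covered the 12461 genes used by no rule. Genes were named if among the 10 largest called differences in each direction, or among the 4 largest called members of a list in each direction. Both needed at least 50 UMIs in the higher class in each library and the same direction in each library. Mitochondrial and ribosomal protein genes and genes with provisional names (Gm or Rik) were left out. Melanocyte markers and rule genes could be named whatever their values, and not all of them are given. For variation, the genes ranked among the 20 highest in both libraries were named, with the same kinds of gene left out. Genes outside these limits, such as S100b, Foxd3, Gjc3, Gnaq, Kitl, Edn3, Trpv2, B2m, Fos and further list members, were named after their values were seen. Cells were thinned with a fixed seed. Promoters are RefSeq's. DESeq2 1.42.0, other scalings, filters and rules served as alternatives, and the test was tried on simulated data. Python 3.11.15 with scipy 1.17.1 did the rest. A comparison with Schwann cells had been planned and was not made, since 5 and 1 cells were found. UMI counts limit precision for genes with few UMIs, and the intervals printed cover counting error only.
The results of some genes are not reported here.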

Additional observations from a re-analysis of the deposited data

How the results depend on the processing

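Counts of called genes stayed within 1.5 times of those reported under each alternative: 824 to 1248 higher and 943 to 1533 lower against pigmented epithelium, and 1043 to 1543 higher and 1083 to 1404 lower against retinal pigment epithelium. With no replicate block (no library term) 824 genes were higher and 943 lower in melanocytes than in pigmented epithelium, and 821 and 942 of these were also called with it. Against retinal pigment epithelium the fit with no replicate block gave 1043 and 1083. The share of melanocytes moved with the rule. Requiring 10 UMIs of Mlana and 2 of the lineage genes gave 7.06% and 2.18%, and allowing no UMI of Rpe65, Rgr, Krt8 or Krt18 gave 2.20% in library 2. Of 109 genes named against pigmented epithelium 14 changed their call under some alternative, as did 20 of 119 against retinal pigment epithelium. These are the genes named by the limits for called differences and the melanocyte markers. Other genes given above, such as Cck, S100b, Spp1, Foxd3, Gjc3, Kitl, B2m and Trpv2, were not followed one by one through the alternatives.

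Some values changed sign. Against pigmented epithelium Gpx3 was at 0.28 with a 15% mitochondrial limit, and Col1a1 at -2.40 without possible doublets and -1.08 without cells holding RNA of other cells. That last setting was added after the data were seen, as was leaving out Myh11-positive epithelial cells. Against retinal pigment epithelium, leaving out possible doublets gave log2 differences of -3.38 for Cxcl12, -2.22 for Serpinf1, -0.45 for Col1a1 and -2.06 for Mgp. That setting removed melanocytes with marker RNA of other classes but no epithelial cells. A fall of fibroblast genes under it is thus partly built in, and it is not a comparison of classes filtered alike. Leaving out cells with RNA of other cells gave -0.56 for Cxcl12, -1.53 for Serpinf1, -0.18 for Col1a1 and -1.10 for Mgp. These genes are fibroblast products, and the cells left out are those with fibroblast, macrophage or endothelial UMIs. Tyr was called higher than in retinal pigment epithelium under some rules. Against pigmented epithelium Tfap2b was called higher under some alternatives, and Oca2 without possible doublets. Mitf, Sytl2, Mcam, Sox5, Nid1 and Gpr143 lost a call under others. For these the cause was not tested. Each library taken alone gave values with no test. The settings listed for a comparison with Schwann cells were not run.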
